A study of Mus musculus with 86 samples.

Results

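Def8, 4632428C04Rik, Snx4 and Ppfibp1 are 4 of the 35275 genes counted in RNA-seq libraries of wild house mice with extreme social network sizes. They were chosen by measured values, namely the study's contrast of expression between females with small and large networks, among genes outside chromosome 11. The animals were free-living Mus musculus domesticus of a barn population. The labels give each animal a high or low gregariousness, which is called here a large or a small social network size. RNA of the prefrontal cortex, the hypothalamus and the hippocampus of 29 animals gave 86 libraries, each of 1 animal and 1 region. In the prefrontal cortex and the hippocampus there were 7 females with large and 7 with small networks, and 7 males with large and 8 with small networks. Hypothalamus libraries came from 7 animals of every group. The labels name no treatment, strain or allele, and age is not given in them.

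The 4 genes have different roles. Def8 encodes a protein that binds Plekhm1, an adaptor of late endosomes and lysosomes, and takes part in placing lysosomes within the cell. Snx4 encodes a sorting nexin, one of a family of proteins that bind and bend endosomal membranes, and returns cargo from endosomes to the cell surface together with Snx7 and Snx30. Ppfibp1 encodes liprin-beta-1, which binds the liprin-alpha scaffolds of synapses and of the cell edge. 4632428C04Rik is annotated as a long intergenic non-coding RNA and has no role that is stated here.

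In GRCm38, Def8 (ENSMUSG00000001482) lies on the plus strand of chromosome 8 from 123423527 to 123463270, and Ppfibp1 (ENSMUSG00000016487) on the plus strand of chromosome 6 from 146888487 to 147032025. 4632428C04Rik (ENSMUSG00000097184) and Snx4 (ENSMUSG00000022808) share chromosome 16 and the plus strand. The first spans 30008667 to 30021430 and the second 33251442 to 33300269, with 3.23 Mb between them. Over exons they are 4408 bases long for Def8, 2428 for 4632428C04Rik, 3988 for Snx4 and 11135 for Ppfibp1. Def8 overlaps the protein-coding gene Gm20388 on the same strand without a shared exonic base. Ppfibp1 overlaps 1700034J05Rik on the other strand, also without a shared exonic base. The antisense gene Gm44085 shares 114 exonic bases with Ppfibp1 and is not a row of the counts. Because the strand setting of the counting is not given in the sources used here, reads of Gm44085 and Ppfibp1 in these bases cannot be told apart.

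The start regions of the pair on chromosome 16 are shown because levels of these genes went together in all 3 regions. This was seen over all animals, which include the females that chose both genes, and was not tested. Each start region runs from 250 bases before to 50 bases after the annotated start, as RefSeq gives it on GRCm38.p6. Capitals mark a CCAAT box (CCAAT, or ATTGG on the other strand) or a GC box (GGGCGG or its reverse). The window of 4632428C04Rik is chr16:30008417-30008716 and that of Snx4 is chr16:33251206-33251505, both on the plus strand.
4632428C04Rik: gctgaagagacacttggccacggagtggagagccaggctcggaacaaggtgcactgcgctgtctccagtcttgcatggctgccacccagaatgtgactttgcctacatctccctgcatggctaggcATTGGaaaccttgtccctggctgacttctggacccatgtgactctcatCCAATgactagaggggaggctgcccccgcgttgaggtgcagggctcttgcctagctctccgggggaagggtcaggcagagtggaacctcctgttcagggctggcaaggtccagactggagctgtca
Snx4: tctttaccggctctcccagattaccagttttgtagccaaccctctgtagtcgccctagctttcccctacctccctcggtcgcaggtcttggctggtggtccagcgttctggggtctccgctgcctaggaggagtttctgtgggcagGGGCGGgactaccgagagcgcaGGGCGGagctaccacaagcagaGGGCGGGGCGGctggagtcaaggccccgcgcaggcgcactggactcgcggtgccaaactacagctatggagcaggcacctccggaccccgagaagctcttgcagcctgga
The window of 4632428C04Rik holds 2 CCAAT boxes and no GC box. That of Snx4 holds 4 GC boxes, of which the last overlaps the one before it, and no CCAAT box. Of 32851 mouse start windows of the same length, 37.4% hold a CCAAT box and 35.7% a GC box on either strand. The GC content was 59.3% for 4632428C04Rik and 64.0% for Snx4, against a median of 52.7% over all windows, and 6 and 19 CpG dinucleotides stood against a median of 7. In the window of Ppfibp1 there were 6 GC boxes and 1 CCAAT box at a GC content of 77.3%. The pair of windows listed for Def8 held 1 GC box and 1 CCAAT box. None of these 5 windows holds a TATA box (TATAAA), which 13.6% of all windows do, or the E-box CACGTG, which 7.15% do. These matches describe letters of the windows and were not tested as sites.

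Total counts lay between 33711824 and 81865801 per library, with a median of 44778419. The summed level of 7 hypothalamic markers was 127 to 1407 CPM (counts scaled to a common library size) in hypothalamic libraries at most 7.22 in prefrontal ones and at most 75.4 in hippocampal ones. The 4 hippocampal markers overlapped between regions, with 220 to 431 in the hippocampus and 167 to 294 in the hypothalamus. Y-linked genes placed all 86 libraries with their labelled sex. The hypothalamus library of animal 19, a female with a large network, had the lowest RNA integrity in the study's records, and animal 12, a male with a small network, had an unusual ratio of counted to mapped reads in 2 regions. Values without these libraries are given where a result rests on them or a call changed.

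Levels are given in CPM after edgeR's TMM normalization over all 86 libraries. Per kilobase of exon, Def8 had the highest level of the 4 genes and 4632428C04Rik the lowest in every region. In the hypothalamus the means over 28 animals were 14.6 ± 1.02 (SD) CPM per kilobase for Def8, 9.99 ± 1.21 for Snx4, 3.48 ± 0.338 for Ppfibp1 and 0.724 ± 0.368 for 4632428C04Rik. None of these per-kilobase ranges of neighbouring genes overlapped in the hypothalamus. The raw counts behind them ran from 764 to 5880 for the 3 protein-coding genes. Those of 4632428C04Rik ran from 10 to 108 in prefrontal, 30 to 191 in hypothalamic and 11 to 91 in hippocampal libraries, so its levels carry the largest counting error.

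**Figure D1:**
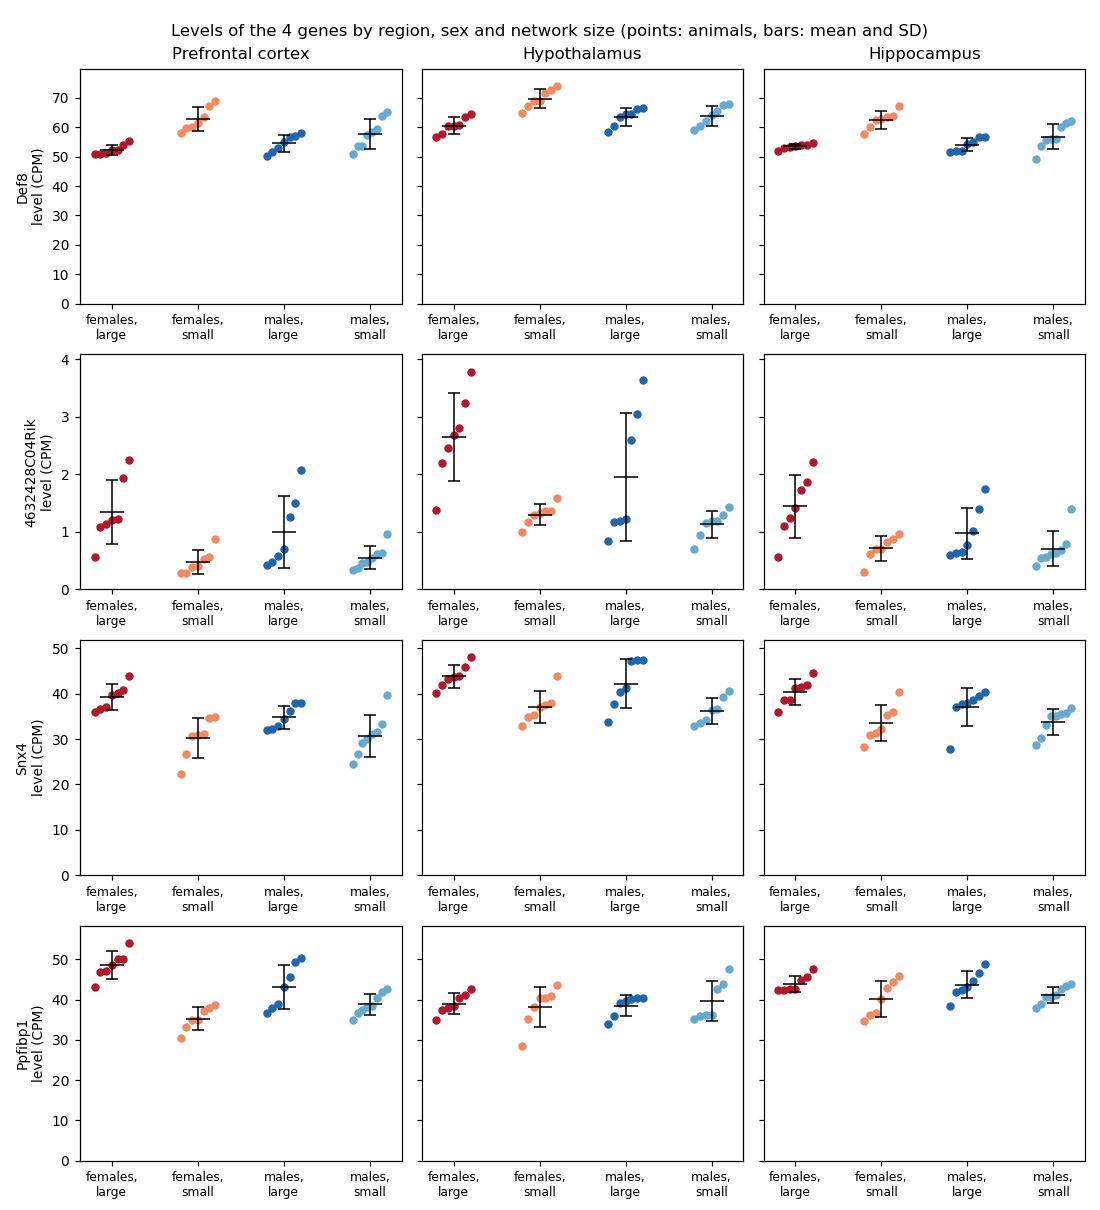
Each panel plots the level of 1 gene (CPM, linear axis from 0) in 1 region for females and males with large and small networks. Points are animals and bars are the mean and SD. Females with small networks all lie above those with large networks for Def8 in the 3 regions, and 4632428C04Rik spreads most within the groups with large networks.

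The hypothalamus held more RNA of 3 of the 4 genes than either other region. 4632428C04Rik had 1.76 ± 0.894 CPM (SD, n = 28) in the hypothalamus, 0.949 ± 0.481 (n = 29) in the hippocampus and 0.834 ± 0.545 (n = 29) in the prefrontal cortex. It was 2.15-fold higher in the hypothalamus than in the prefrontal cortex (log2 fold change 1.11, SE 0.15, adjusted p = 4.9e-10). Adjusted p values are those of the quasi-likelihood test of edgeR after Benjamini-Hochberg correction, unless another test is named. Against the hippocampus it was 1.81-fold higher (log2 fold change 0.86, SE 0.15, adjusted p = 4.6e-07). In bulk tissue, a lower level from fewer cells of a type and one from less RNA per cell cannot be told apart.

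Between hypothalamus and prefrontal cortex, 75.3% of 19873 genes passed the threshold of 0.05. Between hypothalamus and hippocampus 68.8% did, and between hippocampus and prefrontal cortex 63.3%. Of the 12 values of the 4 genes in these comparisons, 9 passed, so regional differences were about as common among them as among all genes. Def8, the lysosome gene, rose from 56.8 ± 5.24 CPM in the prefrontal cortex to 64.4 ± 4.51 in the hypothalamus (log2 fold change 0.18, SE 0.02, adjusted p = 4.2e-12), and its level in the hippocampus was 56.7 ± 4.54. The hippocampus and the prefrontal cortex did not differ beyond their spread for Def8 (log2 fold change of -0.005, 95% interval -0.05 to 0.04).

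Snx4, the endosomal sorting nexin, was ordered hypothalamus, hippocampus, prefrontal cortex, with 39.8 ± 4.84, 36.1 ± 4.35 and 33.6 ± 5.10 CPM. Each step passed the threshold. The log2 fold change was 0.14 (SE 0.04, adjusted p = 0.001) between hypothalamus and hippocampus, and 0.10 (SE 0.04, adjusted p = 0.0199) between hippocampus and prefrontal cortex. Ppfibp1, the liprin, went the other way and was lowest in the hypothalamus, at 38.8 ± 3.76 CPM against 42.2 ± 3.35 in the hippocampus and 41.3 ± 6.12 in the prefrontal cortex. Its log2 fold change was -0.12 (SE 0.03, adjusted p = 0.00225) against the hippocampus and -0.08 (SE 0.03, adjusted p = 0.0287) against the prefrontal cortex. Without animal 12 the second value was -0.07 with an adjusted p of 0.0513.

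4632428C04Rik did not pass the threshold between hippocampus and prefrontal cortex (log2 fold change 0.25, SE 0.15, adjusted p = 0.149). With the animal as a block, since each animal gave libraries of several regions, the value was also 0.25 and the adjusted p was 0.0154. The block then gave 10 passing values of 12.

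In females the contrast of network sizes is the one that chose the genes, so its values are a description without a test, in all 3 regions. Def8 was higher and the other genes were lower in females with small networks, in all 3 regions by sign, except that Ppfibp1 in the hypothalamus lay near 0 and changed sign without animal 4 (0.035). Def8 in the prefrontal cortex ran from 50.9 to 55.2 CPM (median 52.1) in females with large networks, and from 58.0 to 69.0 (median 61.5) in those with small networks. In the hypothalamus the ranges were 56.6 to 64.4 and 64.9 to 74.0, with medians of 60.6 and 69.1. In the hippocampus they were 52.0 to 54.5 and 57.7 to 67.2, with medians of 53.5 and 62.9. Thus every female with a small network lay above every female with a large network in each region. The log2 fold changes of Def8 were 0.26, 0.20 and 0.22 in the prefrontal cortex, hypothalamus and hippocampus.

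Snx4 in the prefrontal cortex of females ran from 36.0 to 43.9 CPM (median 39.8) with large and from 22.4 to 34.9 (median 30.8) with small networks, and did not overlap. In the hypothalamus the ranges were 40.1 to 48.0 and 32.9 to 43.8, and in the hippocampus 36.0 to 44.6 and 28.3 to 40.4, so the groups overlapped there. Its log2 fold changes were -0.37, -0.24 and -0.27. Ppfibp1 differed between network sizes mostly in the prefrontal cortex. There it ran from 43.0 to 54.0 CPM (median 48.5) in females with large networks and from 30.4 to 38.6 (median 34.9) in those with small networks. In the hypothalamus its ranges were 35.0 to 42.6 and 28.5 to 43.5, the second containing the first. The log2 fold changes of Ppfibp1 were -0.46, -0.03 and -0.14, and the difference between regions in this effect was not tested.

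4632428C04Rik showed the widest fold of the 4 genes in females. In the hypothalamus it ran from 1.38 to 3.78 CPM (median 2.68) with large and from 0.991 to 1.59 (median 1.32) with small networks. In the prefrontal cortex the ranges were 0.569 to 2.24 and 0.293 to 0.879, and in the hippocampus 0.556 to 2.21 and 0.303 to 0.967. In each region 6 of the 7 females with large networks lay above all with small networks, and the one that did not was animal 26 each time. Its log2 fold changes were -1.499, -1.03 and -1.02. For scale, all animals of one group lay above all of the other for 0.265% of all genes in prefrontal, 0.0772% in hypothalamic and 0.371% in hippocampal libraries of females. An adjusted p under 0.05 was reached by 2 prefrontal genes (0.0113%), 1 hypothalamic gene (0.00552%) and 0 hippocampal genes (0%) with edgeR. An unadjusted p under 0.05 was found for 1698, 1339 and 2174 genes, and the Wald test of DESeq2 called 59, 43 and 92. Nothing about the 4 genes is read from these shares, because the contrast chose them.

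The males did not enter that choice. No gene passed the threshold between males with small and large networks in any region with edgeR, which is 0% of 17781 genes for prefrontal, 0% of 18053 for hypothalamic and 0% of 17950 for hippocampal libraries. An unadjusted p under 0.05 was found for 448, 524 and 697 genes, and DESeq2 called 2, 1 and 2. The 4 genes accordingly gave 0 passing values of 12, also with DESeq2, and adjusted p values of at least 0.999. Unadjusted, 5 of the 12 values were under 0.05.

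Snx4 was lower by sign in males with small networks in all 3 regions. In the hypothalamus it ran from 33.7 to 47.5 CPM with a median of 41.3 in males with large networks, and from 32.8 to 40.7 with a median of 36.4 in those with small networks. Here 4 males with large networks lay above all with small networks. The log2 fold change was -0.21 with a 95% interval of -0.38 to -0.05. In the prefrontal cortex the ranges of Snx4 were 32.0 to 38.0 and 24.5 to 39.7, and the log2 fold change was -0.18 (95% interval -0.36 to -0.002). In the hippocampus the ranges were 27.8 to 40.4 and 28.8 to 36.8, and the value was -0.13 (95% interval -0.28 to 0.02, adjusted p = 0.999). None of the 3 values passed the threshold.

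4632428C04Rik in males with large networks fell into low and high animals. In the hypothalamus these males ran from 0.842 to 3.65 CPM with a median of 1.21, and those with small networks from 0.703 to 1.43 with a median of 1.19, so the medians were close while 3 males with large networks lay above all others. The log2 fold change was -0.78 (95% interval -1.43 to -0.12). In the prefrontal cortex the ranges were 0.417 to 2.07 and 0.344 to 0.968 and the log2 fold change was -0.87 (95% interval -1.57 to -0.16). In the hippocampus the value was -0.46 (95% interval -1.05 to 0.13, adjusted p = 0.999).

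Ppfibp1 in the prefrontal cortex of males ran from 36.6 to 50.4 CPM (median 43.0) with large and from 35.0 to 42.6 (median 38.2) with small networks, a log2 fold change of -0.16 (95% interval -0.31 to -0.001). In the hypothalamus its value was 0.05 (95% interval -0.11 to 0.21) and in the hippocampus -0.09 (95% interval -0.19 to 0.02), and the groups overlapped in every region. Def8 showed the smallest values in males, with log2 fold changes of 0.08 for prefrontal levels (95% interval -0.04 to 0.20), 0.01 for hypothalamic levels (-0.08 to 0.11) and 0.07 for hippocampal levels (-0.03 to 0.17). Its levels in the hypothalamus ran from 58.4 to 66.5 CPM with large and from 59.0 to 67.9 with small networks. For none of the 4 genes did the males of the 2 network sizes separate fully, which 0.00562% of prefrontal, 0.0111% of hypothalamic and 0.0111% of hippocampal genes did. The difference between the sexes in these effects was not tested, since the females chose the genes.

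**Figure D2:**
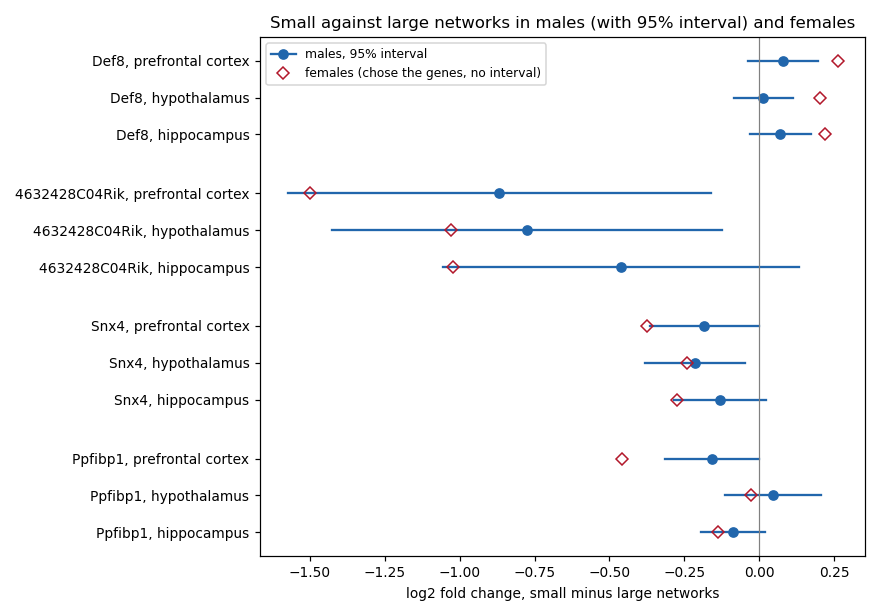
Log2 fold changes of animals with small relative to large networks are plotted for each gene and region. Filled points with 95% intervals are males and open diamonds are females, whose contrast chose the genes and so has no interval. Male values of Def8 lie nearer 0 than those of females in all 3 regions, and the widest intervals are those of 4632428C04Rik.

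As a mean over both network sizes, females and males differed in none of the 4 genes past the threshold, in 12 values with adjusted p from 0.796 to 0.999 with edgeR. The share of all genes that did was 0.0976% for prefrontal, 0.117% for hypothalamic and 0.102% for hippocampal libraries. DESeq2 called none of the 12 values, and 1 had an unadjusted p under 0.05. That one was Def8 in the hippocampus, with a log2 fold change of females relative to males of 0.06 (95% interval 0.0008 to 0.13, adjusted p = 0.811). The intervals of the others were narrow for Snx4 and Ppfibp1, such as -0.10 to 0.07 for Ppfibp1 in the hippocampus. They were wide for 4632428C04Rik, whose interval in the hypothalamus was -0.06 to 0.69.

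Whether the genes take discrete levels was asked from the widest gap between neighbouring animals that left at least 3 animals on each side, on the log2 scale. Every gene has a widest gap. That of 4632428C04Rik in the hypothalamus lay between 1.59 and 2.19 CPM and was 19.1% of its whole range, and 4.79% of all genes had one as wide there. Above it lay 9 of 28 animals, namely 6 of 7 females and 3 of 7 males with large networks. No animal with a small network lay above it. Since the females with large networks were part of what chose this gene, their count is a description. Without the hypothalamus library of animal 19, the highest of all, the gap was the same and 8 of 27 animals lay above it. They were 5 females and 3 males, and were also the 8 highest of these 27 animals in the prefrontal cortex.

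The same 9 animals were the 9 highest in the prefrontal cortex. There they ran from 1.09 to 2.24 CPM with a median of 1.26, and the other 20 animals from 0.293 to 0.968 with a median of 0.506. In the hippocampus they ran from 1.01 to 2.21 CPM, and 1 other animal lay among them. That was animal 10, a male with a small network, which had 1.40 CPM in the hippocampus, 0.968 in the cortex and a hypothalamic level of 1.19. Without it the others ended at 0.967 in the hippocampus. Of 17824 genes tested in all regions, 0.202% had the same 9 highest animals in the prefrontal cortex and the hypothalamus. In all 3 regions 4632428C04Rik shared 8 of its 9 highest animals, against a median of 2 over all genes, and 0.348% of genes shared as many. Because 6 of the 9 are females with large networks, whose levels entered the choice of the gene, nothing is read from these shares.

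**Figure D3:**
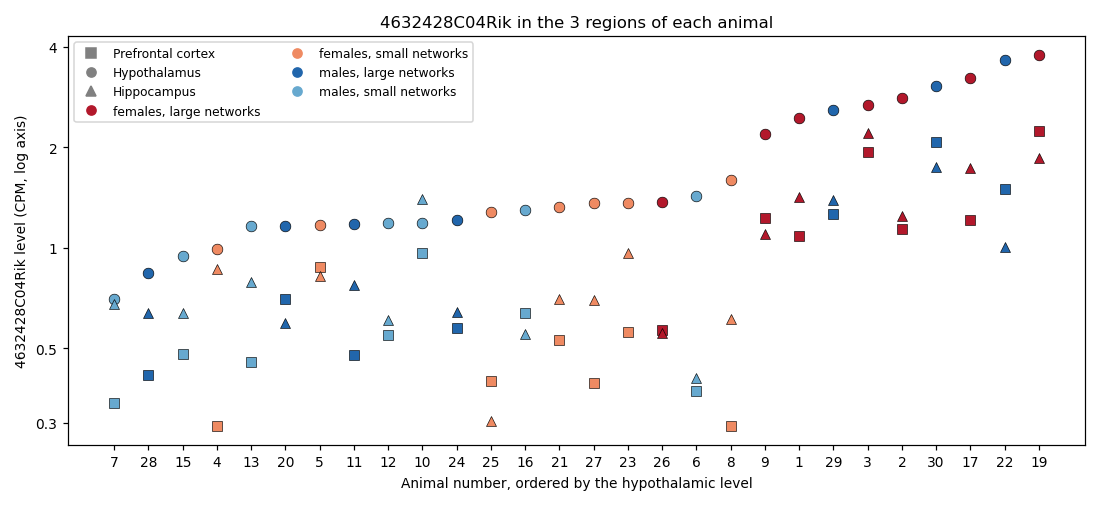
The level of 4632428C04Rik (CPM, log axis) is plotted for the 28 animals with libraries of all 3 regions, ordered by the hypothalamic level. Squares are the prefrontal cortex, circles the hypothalamus and triangles the hippocampus, and colours give the 4 groups. The 9 animals at the right are highest in the hypothalamus and in the prefrontal cortex, and animal 10 has a high hippocampal level among the others.

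The widest gap itself did not fall between these animals in the other regions. In the prefrontal cortex it lay between 1.497 and 1.94 CPM with 3 animals above (13.8% of the range), and in the hippocampus between 1.42 and 1.73 with 4 above (10.9%). By the gap, 22 of 28 animals were on the same side in all 3 regions, and 5.13% of genes reached this number. Def8 gave 21 of 28 animals, a number that 7.05% of genes reached, with 2 animals above and 19 below in all regions. Its gaps were 9.34%, 13.4% and 11.999% of the range in the prefrontal cortex, hypothalamus and hippocampus. All animals above these gaps had small networks. Of these, 3 of 5, 3 of 3 and 6 of 9 were females, whose levels entered the choice of the gene. As for 4632428C04Rik, these counts are descriptions. For Snx4 only 8 animals and for Ppfibp1 only 9 were on the same side throughout, near the median of 8 over all genes, with widest gaps between 6.80% and 12.4% of the range. The widest gaps of these 3 genes took smaller shares of their ranges than that of 4632428C04Rik in the hypothalamus.

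Agreement between regions of the same animals was tested in the males, as Pearson's r and Spearman's rho of log2 levels with permutation tests (on both sides) of 100000 resamples. The p values were adjusted over 36 relations, which include both female groups. Snx4 agreed best between hypothalamus and hippocampus, with r = 0.83 (n = 14, permutation p = 0.00027, adjusted p = 0.00486) and rho = 0.90 (permutation p = 6e-05, adjusted p = 0.00216). Without the 2 males farthest from the median r was 0.86. Between prefrontal cortex and hypothalamus Snx4 gave r = 0.66 (n = 14, permutation p = 0.0114, adjusted p = 0.0522) and rho = 0.70 (permutation p = 0.00632, adjusted p = 0.0455). Between prefrontal cortex and hippocampus it gave r = 0.63 (n = 15, permutation p = 0.0116, adjusted p = 0.0522) and rho = 0.75 (permutation p = 0.00176, adjusted p = 0.0211). Without the 2 farthest males these r were 0.66 and 0.51. Males high in Snx4 in one region were thus high in the others by rank.

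Def8 agreed between prefrontal cortex and hippocampus, with r = 0.80 (n = 15, permutation p = 0.00048, adjusted p = 0.00513) and rho = 0.78 (permutation p = 0.00106, adjusted p = 0.0191), and r was 0.71 without the 2 farthest males. Its relations with the hypothalamus did not pass. They were r = 0.52 (permutation p = 0.0578, adjusted p = 0.149) and rho = 0.43 (permutation p = 0.128, adjusted p = 0.263) with the prefrontal cortex, and r = 0.43 (permutation p = 0.129, adjusted p = 0.221) and rho = 0.24 (permutation p = 0.408, adjusted p = 0.544) with the hippocampus. Ppfibp1 passed for no pair of regions. Its r was -0.07 between prefrontal cortex and hypothalamus (permutation p = 0.813, rho of -0.002, p = 1), -0.04 between hypothalamus and hippocampus (permutation p = 0.89, rho of -0.15, p = 0.604), and 0.46 between prefrontal cortex and hippocampus (permutation p = 0.0857, rho of 0.54, p = 0.0417, adjusted p = 0.176 and 0.188).

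For 4632428C04Rik, 3 males stand apart in the hypothalamus, so an r over all males mixes separate levels. Over all males r was 0.88 between prefrontal cortex and hypothalamus (n = 14, permutation p = 0.00018, adjusted p = 0.00486, rho of 0.71, permutation p = 0.00595, adjusted p = 0.0455). It was 0.82 between prefrontal cortex and hippocampus (n = 15, permutation p = 0.00057, adjusted p = 0.00513, rho of 0.44, permutation p = 0.106, adjusted p = 0.24), and 0.61 between hypothalamus and hippocampus (n = 14, permutation p = 0.0189, adjusted p = 0.0682, rho of 0.27, permutation p = 0.342, adjusted p = 0.49). Without the 2 farthest males these r were 0.73, 0.72 and 0.41. Male 18 has no hypothalamus library, so its side of the hypothalamic gap is unknown. Within the males not found above this gap, r of the same pairs was 0.42 (n = 11), 0.54 (n = 12, with male 18) and -0.14 (n = 11), with rho of 0.42, -0.08 and -0.38. None of these reached the r over all males. However, the cut takes away the highest hypothalamic levels, which by itself tends to lower r. These values thus cannot tell how far the agreement of this gene rests on the 3 high males.

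Such agreement was common among all genes. In the males, r was at least 0.5 for 30.2% of 17824 genes between prefrontal cortex and hypothalamus, 29.7% between prefrontal cortex and hippocampus, and 28.7% between hypothalamus and hippocampus. An r as high as that of Snx4 between hypothalamus and hippocampus was reached by 3.87% of genes, and one as high as that of Def8 between prefrontal cortex and hippocampus by 5.41%. The r of 4632428C04Rik between prefrontal cortex and hypothalamus was reached by 2.31%. The values of Ppfibp1 with the hypothalamus were exceeded by 87.8% and 85.5% of genes.

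Within the females of 1 network size (n = 7), none of the 24 relations passed after adjustment in exact permutation tests. With large networks r ran from 0.84 to 0.90 for 4632428C04Rik, whose animal 26 was low in every region, and between 0.57 and 0.74 within the other 6 females. In females with small networks, which hold no high animal, r of this gene ran from -0.24 to 0.28. For Snx4 the r ran from 0.26 to 0.88 with large and from 0.65 to 0.80 with small networks, and for Def8 from 0.42 to 0.84 and from 0.23 to 0.68. For Ppfibp1 the r ran from 0.38 to 0.70 and from -0.08 to 0.09. These values rest on few animals. With the 2 females most distant from the median left out, r of Snx4 ran from -0.34 to 0.61 with large and from -0.12 to 0.76 with small networks. The 0.80 of Snx4 between hypothalamus and hippocampus became -0.12, and its 0.26 between prefrontal cortex and hippocampus became -0.34. In the same way r of 4632428C04Rik ran from 0.05 to 0.77 and from -0.19 to 0.13, that of Def8 from 0.34 to 0.59 and from 0.50 to 0.57, and that of Ppfibp1 from 0.03 to 0.74 and from -0.73 to 0.30. Without animal 19, the r of 4632428C04Rik in females with large networks was 0.76 between hypothalamus and prefrontal cortex and 0.88 between hypothalamus and hippocampus (n = 6).

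**Figure D4:**
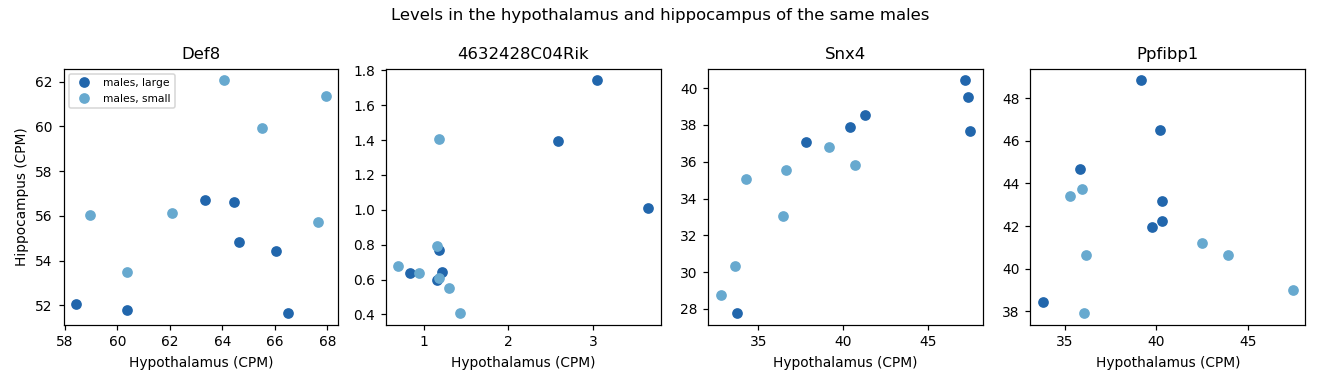
The hippocampal level (CPM) of each male is plotted against its hypothalamic level (CPM), with 1 panel per gene and both network sizes coloured. Snx4 rises along both axes, 4632428C04Rik has 3 males apart at the right, and Ppfibp1 has no slope.

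The 4 genes went with each other to different degrees. Over all animals of a region, 4632428C04Rik and Snx4 had r = 0.63 for prefrontal, 0.58 for hypothalamic and 0.58 for hippocampal levels. These values include the females that chose both genes. In the males alone they were 0.42, 0.45 and 0.40, and for deviations from the means of the 4 groups of sex and network size 0.29, 0.24 and 0.33. Def8 went against Snx4 in the mean over the regions, with r of -0.56 over all animals and -0.29 in the males. By region the males had r = -0.52 for prefrontal, 0.11 for hypothalamic and -0.46 for hippocampal levels. In males, Ppfibp1 and 4632428C04Rik had r = 0.70 for prefrontal, -0.09 for hypothalamic and 0.34 for hippocampal levels. These correlations are given as descriptions, over libraries that share their normalization.

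The genes whose levels were most like each of the 4 were taken as those with the largest absolute mean r over the 3 regions, over 28 or 29 animals in each, among the 17824 genes. These animals include the females that chose the 4 genes. Distances are signed along the chromosome, so that a negative one lies before the gene. For Snx4 the first was Cep19, a centriolar gene on chromosome 16 at -1.14 Mb, with a mean r of 0.76 (0.67 in males, 0.69 for deviations from group means). Then came Ppp1r2-ps4 (-0.65), Nwd1 (-0.62), Paqr8 (-0.62) and Ppp1r2 (0.62), an inhibitor of protein phosphatase on chromosome 16 at -1.98 Mb. Ppp1r2-ps4 is a pseudogene on chromosome 9 named for Ppp1r2, and reads of such copies could be counted on either. Of the 20 genes most like Snx4, 7 lie on chromosome 16, which holds 3.002% of the genes. In the males alone 1 of 20 did, and for deviations from group means 3.

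For 4632428C04Rik the first was Myh15, a myosin heavy chain on chromosome 16 at 19.04 Mb, with a mean r of 0.66 (0.63 in males, 0.50 for deviations). Rps4l (-0.64), annotated as a processed pseudogene of a ribosomal protein gene, 4930565N06Rik (-0.62), Ppp1r2-ps4 (-0.61) and Dtx3l (-0.60), a ubiquitin ligase, followed. 4930565N06Rik and Dtx3l lie on the same chromosome at 6.86 and 5.91 Mb. Snx4 itself came next, at rank 6 over all animals, which include the females that chose both genes. It ranked 197 in the males alone and 437 for deviations from group means. In all, 8 of the 20 genes most like 4632428C04Rik were on chromosome 16, and 3 of these within 5 Mb. In the males alone only 2 of the 20 most alike were, and for deviations from group means 3.

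**Figure D5:**
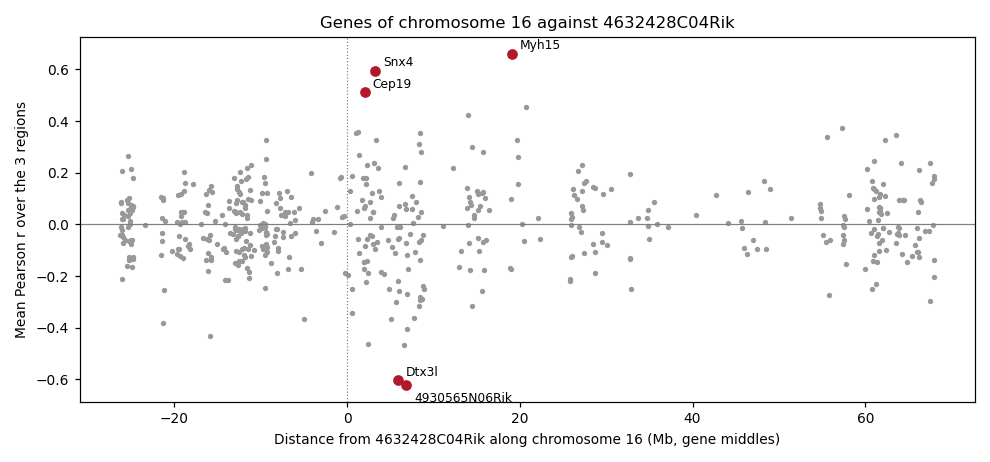
Each point is a gene of chromosome 16, with its distance from 4632428C04Rik in Mb and its mean Pearson r with that gene over the 3 regions, over all animals. The labelled genes include Myh15, Snx4 and Cep19 with positive values and Dtx3l and 4930565N06Rik with negative values, and most points lie between -0.4 and 0.4.

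For Def8, Hsdl1 had a mean r of 0.64, Alg6 -0.61, Galns 0.60, Wdr60 -0.58 and Kcng4 0.58. These ranked 76, 371, 15, 171 and 360 in the males alone, and 256, 599, 37, 504 and 418 for deviations from group means. Galns encodes a lysosomal sulfatase and lies at -0.812 Mb from Def8, and Hsdl1 and Kcng4 lie at -3.85 and -3.79 Mb on the same chromosome. Of the 20 most alike, 6 lie on chromosome 8, which holds 5.15% of the genes, but 1 in the males alone and 0 for deviations. For Ppfibp1 the values were 0.59 for Zfp445, -0.58 for Clptm1, 0.58 for Wdr60, 0.57 for Tia1 and 0.56 for D930016D06Rik. These ranked 167, 72, 50, 80 and 89 in the males alone, and 7, 10, 88, 17 and 54 for deviations. Only 1 of the 20 genes most like Ppfibp1 was on its own chromosome 6 (4.88% of genes), as in the males alone, and 3 were for deviations. Wdr60, a gene of ciliary transport, was on both lists with opposite signs, negative with Def8 and positive with Ppfibp1.

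Within 500 kb of the gene bodies, the largest absolute mean r was smaller for 4632428C04Rik than for the others, which was not tested. This gene had the fewest tested neighbours and the largest counting error, and both tend to lower such a value. Of its 7 neighbours that were tested, Tmem44 (-0.25), Hes1 (-0.20), a Notch target 43.0 kb away, and Gm26834 (-0.19) had the largest absolute mean r. Around Def8 there were 27 such genes, led by Spire2 (0.52), Fanca (-0.50) and Rhou (0.43). The 11 around Snx4 were led by 1700007L15Rik (0.44), Slc12a8 (0.40) and Rubcn (-0.37), a regulator of autophagy. Near Ppfibp1 there were 14, with Tm7sf3 (-0.49), Arntl2 (0.48) and Fgfr1op2 (0.37) first.

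Since 0% to 0.0113% of all genes passed between network sizes with edgeR, a list without a call is no result about its pathway, and the lists are given for their values. Of 36 sorting nexins and retromer genes, 35 to 36 were tested in each comparison and none passed in females or males of any region. Their median log2 fold change in the prefrontal cortex of females was -0.006, against -0.0004 over all genes. The partners of Snx4, Snx7 and Snx30, had log2 fold changes there of -0.12 (adjusted p = 0.681) and 0.19 (adjusted p = 0.525) with edgeR.

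Of 20 liprins and active zone genes, none passed in the 6 comparisons when Ppfibp1 is set aside, since females chose it. With Ppfibp1 in the list, 2 were higher and 6 lower in the hippocampus of females at an unadjusted p under 0.05. Among all genes 2174 of 17800 had such a p there with edgeR, in either direction. Ppfibp2, a relative of Ppfibp1, had log2 fold changes in the prefrontal cortex of -0.10 in females (adjusted p = 0.713) and -0.14 in males (adjusted p of at least 0.999 with edgeR). None of 27 genes of lysosome placing and late endosomes passed, and in the prefrontal cortex of females 2 were higher and 3 lower at an unadjusted p under 0.05. Of all genes there, 1698 of 17710 had such a p with edgeR, in either direction. Plekhm1, the partner of Def8, had log2 fold changes in females of 0.17, 0.11 and 0.18 in the prefrontal cortex, hypothalamus and hippocampus (adjusted p = 0.524, 0.788 and 0.425 with edgeR) and of 0.07, 0.02 and 0.02 in males. Cd47, a cell surface gene that limits phagocytosis and also lies on chromosome 16, had -0.10 in the hypothalamus of females (adjusted p = 0.532 with edgeR) and 0.04 in that of males. Its list, of inflammation genes named beside Snx4, came from the study of these same samples and is not independent evidence.

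Marker genes of 11 cell types were summed for each animal. For none of these lists did the sums of animals with small and large networks lie fully apart in either sex or any region, and only 0.00562% to 0.371% of single genes did so. In the prefrontal cortex of females, endothelial markers summed to 173 to 250 CPM with large and 189 to 239 with small networks, and microglial markers to 209 to 226 and 213 to 300. Choroid plexus markers in the prefrontal cortex were at most 16.9 CPM in females and reached 432 in 1 male with a large network. Some lists shifted in their single genes. In the hypothalamus of females with small networks 3 of 5 oligodendrocyte markers were higher at an unadjusted p under 0.05 (median log2 fold change 0.29). In their hippocampus 3 of 5 astrocyte markers were (median 0.16). Of all genes, 1339 of 18129 and 2174 of 17800 had such a p there with edgeR, in either direction. Astrocyte markers in the hippocampus of males went the other way, with 3 of 5 lower (median -0.12). There 2 of 5 microglial markers were also lower (median -0.03) and 2 of 3 inhibitory neuron markers higher (median 0.13). Of all genes there, 697 of 17950 had such a p with edgeR. Microglial markers of females were higher for 2 of 5 in both the hypothalamus and the prefrontal cortex (medians 0.13 and 0.17). In their prefrontal cortex 1698 of 17710 genes had such a p. Choroid plexus markers were higher for 2 of 4 in the hypothalamus of females (median 0.43). They were lower for 2 of 4 in that of males, where 524 of 18053 genes had such a p. In males with small networks the medians of red blood cell markers were 0.63 for prefrontal, 0.73 for hypothalamic and 0.60 for hippocampal libraries, and those of choroid plexus markers were -0.80, -0.75 and 0.02. No marker passed after adjustment with edgeR. Their part in the values of the 4 genes was not tested.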

How the data were processed

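Counts of reads per gene in 86 libraries were analysed. The authors mapped paired reads to GRCm38 (mm10) with STAR, counted them on genes with HTSeq and deposited the counts without normalization. The submitters' processing notes also name CASAVA 1.8.2 and DESeq2. The annotation release and strand setting are not given in the sources used here. Gene names and positions came from GENCODE vM21, in which 34490 of 35275 genes were found, and start windows from RefSeq on GRCm38.p6.

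Genes were kept by filterByExpr (minimum count 10, minimum total count 15, proportion 0.7) and compared with the quasi-likelihood test of edgeR 4.0.16 in R 4.3.3, after TMM normalization and with Benjamini-Hochberg adjustment over all genes at a threshold of 0.05. Network sizes were compared within each sex and region, sexes within a region, and regions over all libraries. Standard errors were taken from the F statistics. Correlations used log2(CPM + 0.1) and scipy 1.17.1. Fits were tested on simulated counts. Alternatives were DESeq2 1.42.0, its size factors, a filter of at least 1 count, 1 fit of 4 groups, animals left out and the animal as a block. Libraries of the same animal deviated together, with a correlation of 0.279 to 0.66 for every animal and pair of regions against a median near 0 between different animals, so animal numbers pair the libraries.

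The genes, lists and tests were chosen with earlier results of these data known. Named genes are the 4 genes, the 5 most alike for each, the 3 most alike within 500 kb, list genes past the threshold and 5 partners. 4632428C04Rik had the fewest counts and thus the largest counting error. Replicates are separate animals. The check of the prefrontal cortex by its own markers is not reported here.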

Additional observations from a re-analysis of the deposited data

Results flagged for a closer look

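Levels of the 4 genes were looked at in 48 groups, and in 3 of them 1 animal lay far from the others of its group by the gap to its nearest neighbour relative to the range. The cutoff of this rule is nominally passed by about 1 in 20 groups by chance alone, a rate that was not measured here. A pair of these were the same animal, the male 10 with a small network. Its level of 4632428C04Rik was 0.968 CPM in the prefrontal cortex, where the other 7 males of its group had 0.344 to 0.639, and 1.40 CPM in the hippocampus, where they had 0.408 to 0.790. In the hypothalamus its level of 1.19 CPM lay within the 0.703 to 1.43 of its group. Its gap took 0.527 of the range in the prefrontal cortex, which only just passed the cutoff, and 0.617 in the hippocampus.

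The other was Snx4 in the hippocampus of male 28, which has a large network. Its level was 27.8 CPM, against 37.1 to 40.4 in the other 6 males of the group.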

How the results depend on the processing

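The count of passing values did not change by more than 1.5 times under any alternative run. In males it was 0 of 12 with DESeq2, its size factors, the weaker filter, all 4 groups in 1 fit and each animal left out (0 to 0), and between sexes 0 with each alternative. In females 8 to 9 of the 12 log2 fold changes were below 0 with each animal left out, and 9 otherwise. Between regions 9 of 12 passed, 8 without animal 12, 9 without the hypothalamus library of animal 19 and 10 with the animal number as a replicate block, which changed no call other than that of 4632428C04Rik between hippocampus and prefrontal cortex. In the agreement of males 4 of 12 relations passed by r, and 6 with the size factors of DESeq2, where both remaining relations of Snx4 passed (r = 0.67 and 0.66, adjusted p = 0.0437 for each by permutation). For 4632428C04Rik 22 of 28 animals stayed on the same side with either alternative, and 21 of 27 without the hypothalamus library of animal 19, an alternative chosen after the data were seen, while for Ppfibp1 9 became 3 with the size factors of DESeq2 and 4 on the linear scale.

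The following values changed sign. Def8 between hippocampus and prefrontal cortex was 0.0026 without animal 12 and 0.0020 without the library of animal 19. In the hypothalamus of males, left-out animals gave Def8 -0.0080 to 0.032 and Ppfibp1 -0.0043 to 0.070. In the hypothalamus of females, Ppfibp1 ran from -0.066 to 0.035 with each animal left out. The r of Ppfibp1 between hypothalamus and hippocampus was 0.024 for deviations from group means. The r of 4632428C04Rik for this pair was -0.14 within the males below the gap, an alternative also chosen then, as were the correlations in the males alone and on deviations. Correlations within the females that changed sign without the 2 farthest animals stand beside their values above. The cause of these changes was not tested. In males, leaving out each animal moved the log2 fold change of 4632428C04Rik over -1.03 to -0.58 in the prefrontal cortex, -0.90 to -0.56 in the hypothalamus and -0.69 to -0.26 in the hippocampus. With 10 to 191 counts per library, this gene has the largest counting error of the 4.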
